A study of Mus musculus with 14 samples.

Results

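Follicular B cells lacking both RelB and c-Rel were compared with wild-type follicular B cells as taken from the spleen, before any time in culture. The comparison holds 4 of the 14 libraries of the series, chosen by their titles: the 2 libraries of dbko at 0h, whose genotype is relb-/-crel-/-, and the 2 libraries of wt at 0h, which are wild type. All of them came from C57BL/6 mice, and the B cells were separated from spleen with a Miltenyi bead kit for marginal zone and follicular B cells. The other 10 libraries are dbko, wt and crel-/- (cko) cells after 6h with the cytokine BAFF at 50 ng per ml, cko cells at 0h and wt cells at 27h, again 2 libraries a group. What part of either gene the alleles remove, whether the genes are lost in the whole animal, and whether both libraries of a group are from different mice remain not given in the sources used here. P-values therefore measure only the spread between libraries of a group, pooled over the groups of all 14 libraries. Whether that spread is technical or lies between mice is not known.

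RelB and c-Rel, encoded by Relb and Rel, are subunits of NF-kB, a family of dimeric transcription factors held in the cytoplasm of resting cells by inhibitors. c-Rel acts mainly downstream of the B cell receptor and Toll-like receptors through the classical pathway, in which IkB proteins are degraded. RelB is the partner of p52, which is processed from the Nfkb2 product when BAFF binds its receptor and the kinase NIK (Map3k14) is stabilised. BAFF keeps mature B cells alive, and survival proteins of the Bcl-2 family are among the products of NF-kB target genes.

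RNA primed with poly-dT was sequenced, and reads were deposited as counts per gene. Gene counts summed to 10835485 and 11335215 in dbko and to 10620035 and 11308901 in wt, within the range of 10497802 to 11888765 over the series, and the mitochondrial genome took 2.64 and 2.46% of them in dbko and 2.89 and 2.48% in wt. Of 39179 gene identifiers 12630 had enough counts to be tested. Levels are in CPM, counts scaled to a common library total after TMM normalization, with replicate 1 given before replicate 2. Changes are log2 fold changes of dbko over wt with their SE, from edgeR's quasi-likelihood fit to all 14 libraries, and a gene was called higher or lower at a Benjamini-Hochberg adjusted p under 0.05. The libraries carried markers of B cells: Ms4a1, which encodes CD20, stood at 1947 and 1668 CPM in dbko and 1755 and 1751 CPM in wt. Cd3e, which defines T cells, had 0 and 1 counts in dbko and none in wt.

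Both targeted genes were lower in dbko, Rel by more than 10-fold and Relb by about 2-fold. The gene Rel (ENSMUSG00000020275) lies on the minus strand of chromosome 11 at 23736847 to 23770970 of GRCm38, and its level was 40 and 52.3 CPM in dbko and 633 and 621 CPM in wt, a change of -3.76 ± 0.15 (adjusted p = 1.93e-08). For Relb (ENSMUSG00000002983), on the minus strand of chromosome 7 at 19606217 to 19629438, the level was 53 and 65.6 CPM in dbko and 115 and 117 CPM in wt, a change of -0.97 ± 0.14 (adjusted p = 0.000836). Both dbko libraries lay below both wt libraries for each gene. Since the deleted part of Relb is not known here, the remaining counts say nothing of whether its protein is made.

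The other 3 subunit genes were not called. Rela, which encodes the main activating partner of p50, stood at 246 and 287 CPM in dbko and at 183 and 199 CPM in wt (0.48 ± 0.17, adjusted p = 0.0881). Nfkb1, which encodes p50, stood at 339 and 426 CPM in dbko and at 409 and 421 CPM in wt (-0.12 ± 0.15, adjusted p = 0.662), so its groups overlapped, and its change was 0.03 without dbko replicate 1. Nfkb2, which encodes p52, stood at 267 and 274 CPM in dbko and at 326 and 345 CPM in wt (-0.31 ± 0.16, adjusted p = 0.223).

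Across all genes 1472 were called, 11.7% of those tested, with 897 higher (7.1%) and 575 lower (4.55%) in dbko. The change was at least 2-fold for 552 of the higher and 178 of the lower genes, and the median change over all tested genes was 0.01. Both dbko libraries lay above both wt libraries for 3635 genes (28.8%) and below both for 3767 (29.8%), while the groups overlapped for 5228. With each of the 4 libraries left out in turn, 269 of the higher and 117 of the lower calls held in every one of these fits. The count of calls was 600 without dbko replicate 1 and 3090 without dbko replicate 2, and 462 and 445 without wt replicates 1 and 2. A fit of the 4 libraries alone called 416.

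The dbko libraries differed from each other far more than the wt libraries did. They lay at least 2-fold apart for 778 genes (6.16%), against 61 genes (0.483%) for the wt pair. Among the 8961 genes whose average log2 CPM was 3 or more these numbers were 297 for dbko and 1 for wt. The mean chi-square statistic per gene, which is about 1 for counting noise alone, was 33.23 between the dbko libraries and 3.23 between the wt libraries. Its median over genes was 5.36 for dbko and 0.7 for wt. The mean was 4.16 between the cko libraries at 0h. At 6h it was 38.25 for dbko, 23.74 for cko and 5.04 for wt. Of the 778 genes 551 were higher in dbko replicate 1 and 227 in dbko replicate 2. Genes called higher had a median log2 ratio to the wt mean of 1.5 in dbko replicate 1 and 0.99 in dbko replicate 2, and genes called lower had -0.89 and -0.58, so replicate 1 lay farther from wt in both directions. Of the 1472 called genes 169 had dbko libraries at least 2-fold apart and 969 had them under 1.5-fold apart.

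**Figure D1:**
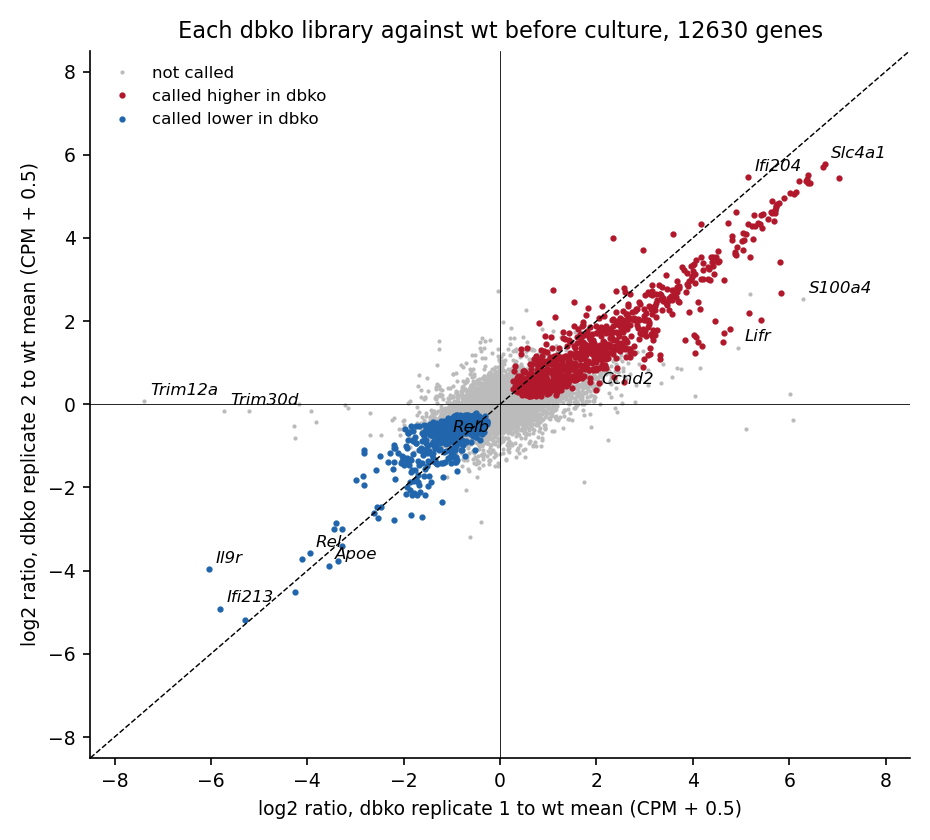
Log2 ratio to the wt mean of dbko replicate 1 (x axis) and dbko replicate 2 (y axis) before culture for the 12630 genes tested, from CPM plus 0.5. Red points are the 897 genes called higher and blue points the 575 called lower in dbko, and the dashed line marks equal ratios. Most red points lie below the line, where replicate 1 exceeds replicate 2, and Trim12a and Trim30d lie far to the left, near 0 on the replicate 2 axis.

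The largest rises in dbko were in genes of red cell precursors. Of 24 tested members of an erythroid list 23 were called higher and 0 lower, with a median change of 6.02, and 22 of these calls held without any 1 of the 4 libraries. Over all genes 7.1% were called higher and 4.55% lower. The CPM of the erythroid list summed to 2519 and 1265 in dbko and to 82.6 and 88.1 in wt. In these bulk libraries more cells of a type and more RNA per cell cannot be told apart.

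The list held membrane and skeleton proteins of the red cell. Slc4a1, the anion exchanger band 3, stood at 330 and 169 CPM in dbko and at 1.98 and 3.19 CPM in wt (6.58 ± 0.50, adjusted p = 4.02e-05). Ank1, the ankyrin that ties spectrin to the membrane, stood at 93.5 and 45.6 CPM in dbko and at 1.25 and 1.36 CPM in wt, a change of 5.72. The blood group genes Rhag (6.56), Rhd (6.27) and Ermap (5.31) rose as well, Ermap standing at 142 and 77.3 CPM in dbko and at 2.61 and 2.90 CPM in wt. In each of these genes both dbko libraries lay above both wt libraries, with replicate 1 the higher of the dbko pair.

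Globin and heme genes were higher too, with an uncertainty: reads of near-identical globin copies can be lost or split. Hbb-bs, a beta globin, stood at 390 and 127 CPM in dbko and at 2.40 and 2.52 CPM in wt (6.71 ± 0.75, adjusted p = 0.000416), and Hba-a1, an alpha globin, at 73.7 and 36.4 CPM in dbko and at 1.04 and 0.968 CPM in wt (5.76 ± 0.48, adjusted p = 4.02e-05). The second beta globin, Hbb-bt, went the other way between the dbko libraries, with 20.9 and 66.3 CPM in dbko and 4.06 and 3.29 CPM in wt. Fech, the last enzyme of heme synthesis, which many cells use, stood at 98.3 and 61.6 CPM in dbko and at 25.2 and 24 CPM in wt. The transcription factors of red cell precursors had a signal too, Klf1 with 33.8 and 16.5 CPM in dbko against 0.208 and 0.774 CPM in wt, and Gata1 with 36.8 and 18 CPM in dbko against 0.521 and 0.29 CPM in wt. Bpgm, which makes 2,3-bisphosphoglycerate in red cells, was the tested member not called, with 20.4 and 17.6 CPM in dbko and 22.4 and 22.4 CPM in wt.

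The erythroid genes moved nearly as a block between the dbko libraries. Replicate 1 exceeded replicate 2 in 23 of 24 members, by a median ratio of 1.96. Apart from Hbb-bt, with a ratio of 0.32, the ratios ran from 1.15 to 3.06. Of genes not on the list, Aqp1, a water channel of red cells and endothelium, stood at 350 and 180 CPM in dbko and at 4.38 and 3.10 CPM in wt (6.15), and Sptb, erythroid beta spectrin, at 127 and 63.7 CPM in dbko and at 1.35 and 0.774 CPM in wt (6.48). Car1, a carbonic anhydrase on the list, stood at 138 and 66.1 CPM in dbko and at 1.35 and 0.968 CPM in wt (6.45). Sptb overlaps Plekhg3 on the opposite strand, and whether strand was used in counting was not given in the sources used here. Against cko at 0h, too, 23 of 24 erythroid genes were higher in dbko, with a median difference of 3.67, beside a share of 9.03% of all genes called in that comparison.

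**Figure D2:**
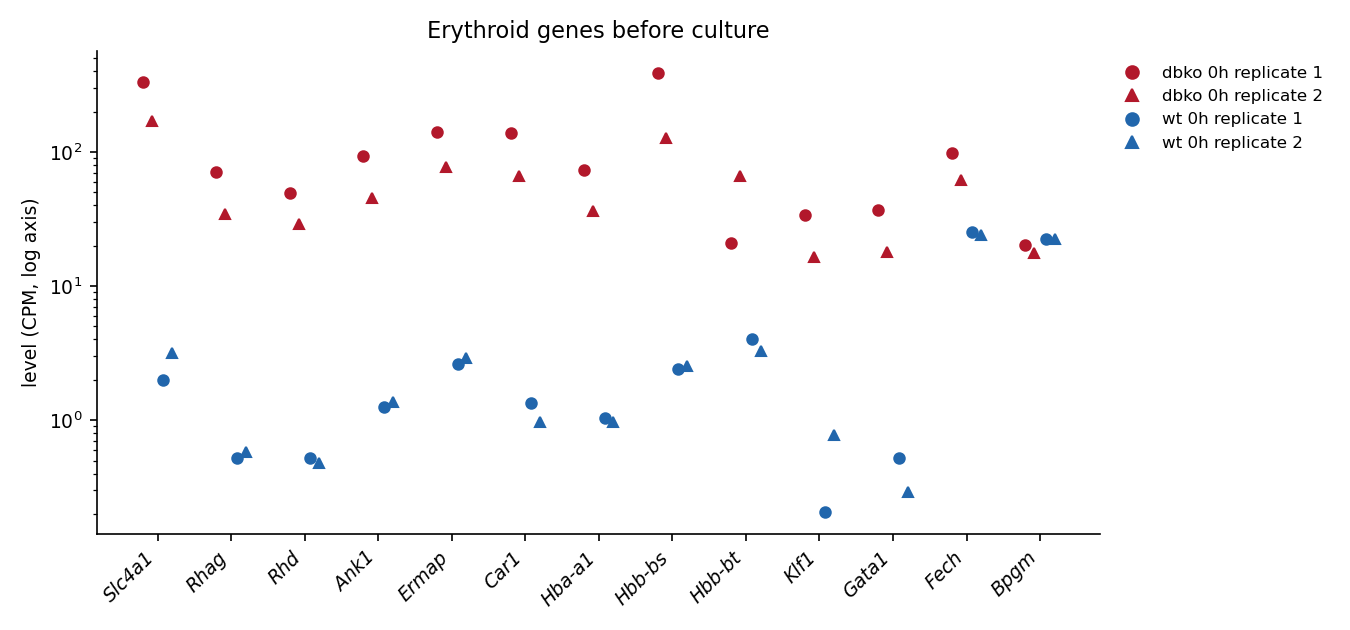
CPM on a log axis of 13 erythroid genes before culture, with red points for the dbko libraries and blue points for the wt libraries, circles for replicate 1 and triangles for replicate 2. The dbko points lie above the wt points for every gene drawn but Bpgm, and replicate 1 lies above replicate 2 in dbko except for Hbb-bt.

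Markers of dendritic cells and 2 of 18 tested monocyte and macrophage markers were also higher in dbko. The levels of Xcr1, Clec9a, Cst3, Mpeg1 and Adgre1 were close to each other in both dbko libraries. Of 7 tested dendritic cell genes 5 were called higher and 0 lower, with a median of 1.58, beside 7.1 and 4.55% over all genes. The count was 4 without either dbko library and 3 without either wt library. Their CPM summed to 303 and 312 in dbko and 150 and 145 in wt. Xcr1, the chemokine receptor of cross-presenting dendritic cells, stood at 12.6 and 14.8 CPM in dbko and at 1.67 and 1.74 CPM in wt (2.99 ± 0.35, adjusted p = 0.000171). Clec9a, a receptor for dead cells on the same subset, stood at 13.7 and 11.6 CPM in dbko and at 1.98 and 1.55 CPM in wt (2.84 ± 0.43, adjusted p = 0.00141), though it overlaps Clec1b on the same strand. Cst3, cystatin C, stood at 240 and 248 CPM in dbko and at 124 and 119 CPM in wt (1.00 ± 0.17, adjusted p = 0.00269). Zbtb46, also called higher, stood farther apart, at 9.02 and 5.75 CPM in dbko and at 2.50 and 2.42 CPM in wt. It stood at 8.36 and 6.76 CPM in cko at 0h. At 6h it was below wt, at 3.96 and 7.35 CPM in dbko and at 51.6 and 50.7 CPM in wt. Cd8a, which that dendritic subset shares with T cells, had 14.6 and 20.6 CPM in dbko and 4.27 and 3.19 CPM in wt. Cd3e was at or near 0 in all 4 libraries, while the T cell list summed to 55.8 and 87.6 CPM in dbko and 72.9 and 68.9 CPM in wt. Which cells carried Cd8a was not tested. Itgax, which encodes CD11c of dendritic cells and of some B cells, stood at 32.4 and 27.8 CPM in dbko and at 8.44 and 8.13 CPM in wt (1.86 ± 0.30, adjusted p = 0.00175).

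Of 18 tested monocyte and macrophage genes 2 were called higher and 0 lower, beside 7.1 and 4.55% over all genes. The median change was 0.16, and the median log2 ratio to the wt mean was 0.43 in dbko replicate 1 and -0.22 in dbko replicate 2. Mpeg1, which encodes the pore-forming protein perforin-2, stood at 163 and 173 CPM in dbko and at 79.7 and 78.4 CPM in wt (1.09 ± 0.10, adjusted p = 3.29e-05). Adgre1, which encodes the macrophage antigen F4/80, stood at 56.8 and 58.8 CPM in dbko and at 25.8 and 26.4 CPM in wt (1.15 ± 0.14, adjusted p = 0.000216). Other genes of the list did not move with them: Csf1r, the receptor for macrophage growth factor, stood at 43.3 and 14.1 CPM in dbko and at 32.5 and 36.8 CPM in wt, and C1qa, a complement gene of tissue macrophages, at 12.6 and 6.80 CPM in dbko and at 14.6 and 12.7 CPM in wt. Their groups overlapped or lay close together.

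The remaining marker lists of other cells had few tested members, and over all genes 7.1% were called higher and 4.55% lower. Of 4 tested neutrophil genes 2 were called higher, and the list summed to 30.2 and 9.29 CPM in dbko and 1.98 and 2.03 CPM in wt, with Retnlg at 14.7 and 1.44 CPM in dbko and 0.104 and 0 CPM in wt. Without dbko replicate 1, or either wt library, edgeR called 0 of these 4, while over all libraries DESeq2 called 1 and limma voom 4. Of 5 tested megakaryocyte and platelet genes 1 was called higher, Gp9 with 2.16 and 1.82 CPM in dbko and none in wt, and it was not called without dbko replicate 1 or either wt library. Of 4 tested mast cell, basophil and eosinophil genes 1 was higher: Kit, the stem cell factor receptor, which early precursors also carry, stood at 6.48 and 4.50 CPM in dbko and at 1.35 and 1.26 CPM in wt (2.06 ± 0.32, adjusted p = 0.00125). Of 4 stromal and endothelial genes 1 was called higher, Vwf, with 5.54 and 3.83 CPM in dbko and 0.521 and 0.774 CPM in wt. It was not called without dbko replicate 1 or either wt library, and the list summed to 247 and 376 CPM in dbko and 377 and 369 CPM in wt. Of 6 tested T cell genes 1 was higher, the Cd8a named above, and it was not called without wt replicate 2. Of 4 NK cell genes 0 were higher and 1 lower, a call that ended with DESeq2, with limma voom, and without dbko replicate 1 or either wt library. The part of such cells in the other differences described here was not tested.

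Among B cell genes, NF-kB targets were called lower more often than higher. Of 37 tested members of a target list 11 were lower and 4 higher, with a median of -0.31, against 4.55 and 7.1% over all genes. Without dbko replicate 1, or without either wt library, 3 were lower and 1 higher. Without dbko replicate 2 the counts were 14 lower and 5 higher. The 3 lower calls that held without any 1 library were those of Bcl2a1b, Slamf1 and Fas, and the higher one was that of Tnf.

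Slamf1, a lymphocyte surface receptor, stood at 38 and 33 CPM in dbko and at 62.5 and 62.2 CPM in wt (-0.81 ± 0.13, adjusted p = 0.00194). Fas, the death receptor, stood at 2.63 and 3.07 CPM in dbko and at 7.82 and 7.94 CPM in wt (-1.46 ± 0.26, adjusted p = 0.00351). Bcl2a1b, a copy of the survival gene A1 that shares reads with near-identical copies, stood at 2.25 and 2.68 CPM in dbko and at 8.34 and 8.33 CPM in wt (-1.75 ± 0.25, adjusted p = 0.000621). Tnf, the inflammatory cytokine, rose instead: it stood at 57.5 and 40.9 CPM in dbko and at 17.1 and 17.6 CPM in wt (1.5 ± 0.18, adjusted p = 0.000184). For these genes the spread between libraries of a group was small beside the difference between the groups.

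Tnfaip3 and Ltb were lower with a wide gap between the dbko libraries. Tnfaip3, which encodes the NF-kB inhibitor A20, stood at 468 and 923 CPM in dbko and at 1612 and 1575 CPM in wt (-1.20 ± 0.27, adjusted p = 0.0166). The adjusted p was 0.077 without dbko replicate 1, and 0.104 and 0.0902 without wt replicates 1 and 2. Ltb, which encodes lymphotoxin beta, stood at 128 and 200 CPM in dbko and at 294 and 297 CPM in wt (-0.85 ± 0.22, adjusted p = 0.0289), with adjusted p = 0.221 without dbko replicate 1, and 0.14 and 0.141 without wt replicates 1 and 2. Replicate 1 of dbko was the lower of the pair in both genes.

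The promoters of Tnfaip3 and Ltb are shown because, of the 8 target genes called lower that had a promoter sequence, these 2 held the kB consensus, the motif bound by NF-kB dimers. The sequences are the 250 bases before the start of each gene in RefSeq (GRCm38.p6), chr10:19015411-19015660 on the minus strand for Tnfaip3 and chr17:35194257-35194506 on the plus strand for Ltb, with matches in capitals.
Tnfaip3: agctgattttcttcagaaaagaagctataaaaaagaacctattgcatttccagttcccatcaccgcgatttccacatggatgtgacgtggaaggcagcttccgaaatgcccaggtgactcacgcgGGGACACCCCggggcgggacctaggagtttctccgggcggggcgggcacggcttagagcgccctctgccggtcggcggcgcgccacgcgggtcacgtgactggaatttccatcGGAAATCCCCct
Ltb: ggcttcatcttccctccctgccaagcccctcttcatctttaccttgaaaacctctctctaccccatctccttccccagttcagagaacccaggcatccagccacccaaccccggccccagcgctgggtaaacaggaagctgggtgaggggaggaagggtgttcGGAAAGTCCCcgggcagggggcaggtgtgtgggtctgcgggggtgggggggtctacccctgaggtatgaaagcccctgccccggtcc
The matches begin 125 and 12 bases before the RefSeq start in Tnfaip3 and 87 bases before it in Ltb. In GENCODE M21, the source of the other coordinates here, Tnfaip3 starts at 19015657 and Ltb at 35194439. Both of these starts lie inside the windows. Nearly all of the Tnfaip3 window and part of the Ltb window therefore lie within those gene models. Both strands were searched. The motif was present in 2382 of 32851 promoter windows of this length (7.25%), in 984 of the 9422 tested genes with a window (10.4%), in 63 of 440 genes called lower (14.3%) and in 70 of 695 called higher (10.1%). Of the tested target genes with a window 10 of 26 held it (38.5%). A match describes the letters and is not a measured site of binding.

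Some genes of the BAFF receptor pathway were lower in dbko. Of 15 tested receptors and upstream kinases 0 were called higher and 3 lower, with a median of -0.16, and of 12 IkB proteins and inhibitors 0 were higher and 2 lower, with a median of -0.07, beside 4.55% lower over all genes. Without dbko replicate 2 the receptor and kinase list had 5 lower. Map3k14, which encodes NIK, stood at 49.7 and 81 CPM in dbko and at 109 and 103 CPM in wt (-0.70 ± 0.17, adjusted p = 0.0186). Traf5, an adaptor of TNF receptors, stood at 65.3 and 91.5 CPM in dbko and at 125 and 125 CPM in wt (-0.67 ± 0.14, adjusted p = 0.00746). Traf1, another such adaptor, stood at 65.1 and 72.9 CPM in dbko and at 98.4 and 103 CPM in wt (-0.55 ± 0.13, adjusted p = 0.0187). Tnfrsf13c, the BAFF receptor itself, stood at 206 and 174 CPM in dbko and at 211 and 218 CPM in wt and was not called. None of the 3 calls held in every fit that left out 1 library, and neither call of the inhibitor list, Tnfaip3 and Cyld, held without dbko replicate 1 or either wt library. Adjusted p reached 0.0823 without dbko replicate 1, 0.136 without wt replicate 1 and 0.0879 without wt replicate 2 for Map3k14, 0.139, 0.0994 and 0.139 in the same order for Traf1, and 0.0615 and 0.0634 without wt replicates 1 and 2 for Traf5.

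Pro-survival genes were called lower in 5 of 10 tested cases and higher in 1, with a median of -0.60. The shares over all genes were 4.55% lower and 7.1% higher. Without dbko replicate 1 or either wt library 2 were lower and 0 higher, and these were Bcl2a1b and Cflar. Cflar, which encodes the caspase-8 inhibitor c-FLIP, stood at 51.6 and 72.3 CPM in dbko and at 99.8 and 101 CPM in wt (-0.69 ± 0.13, adjusted p = 0.00471). Bcl2 stood at 58.5 and 94.6 CPM in dbko and at 144 and 134 CPM in wt (-0.86 ± 0.19, adjusted p = 0.0117), with adjusted p = 0.0711 without dbko replicate 1, and 0.101 and 0.0616 without wt replicates 1 and 2. Pim3, a survival kinase, stood at 34.6 and 55.5 CPM in dbko and at 140 and 148 CPM in wt (-1.67 ± 0.33, adjusted p = 0.0105), with adjusted p = 0.0868 without dbko replicate 1, and 0.0595 and 0.0719 without wt replicates 1 and 2. The member called higher was Mcl1, another survival protein of the Bcl-2 family, at 1440 and 1234 CPM in dbko and at 960 and 969 CPM in wt. Bcl2l1, which encodes Bcl-xL, was low and not called, with 8.55 and 8.14 CPM in dbko and 10.5 and 9.68 CPM in wt.

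Pro-apoptotic genes went both ways, with 3 of 15 lower and 1 higher and a median of -0.14. The shares over all genes were 4.55% lower and 7.1% higher. Pmaip1, which encodes the BH3-only protein Noxa, stood at 159 and 138 CPM in dbko and at 324 and 323 CPM in wt (-1.12 ± 0.17, adjusted p = 0.00122). Bcl2l11, which encodes Bim, stood at 355 and 430 CPM in dbko and at 187 and 171 CPM in wt (1.13 ± 0.20, adjusted p = 0.00294). Its adjusted p was 0.0512 without wt replicate 2. In both genes the 2 dbko libraries lay on the same side of wt.

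**Figure D3:**
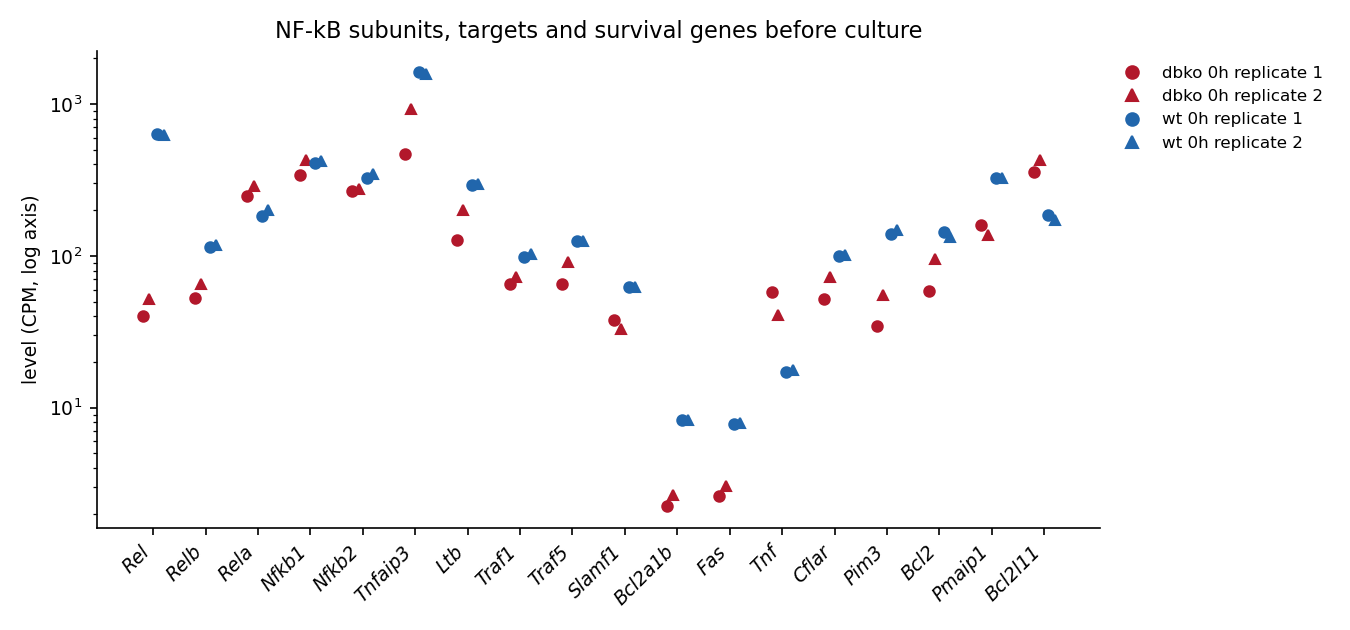
CPM on a log axis of NF-kB subunit, target, survival and apoptosis genes before culture, with red points for dbko and blue points for wt, circles for replicate 1 and triangles for replicate 2. Rel lies more than 10-fold below wt in both dbko libraries, while Tnfaip3, Ltb, Pim3 and Bcl2 are lower with replicate 1 the lowest, and Tnf and Bcl2l11 are higher.

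Immediate early genes, which respond within minutes to stimulation of a cell, were called lower in 10 of 27 cases and higher in 0, with a median of -0.72. Over all genes 4.55% were called lower and 7.1% higher. The list summed to 10234 and 16433 CPM in dbko and to 24298 and 24618 CPM in wt. Dusp1, a phosphatase of MAP kinases, stood at 180 and 221 CPM in dbko and at 446 and 470 CPM in wt (-1.19 ± 0.12, adjusted p = 5.15e-05), though it overlaps Ergic1 on the opposite strand. Jun stood at 190 and 278 CPM in dbko and at 702 and 683 CPM in wt (-1.57 ± 0.19, adjusted p = 0.000198), and the transcription factor gene Klf6 at 984 and 1311 CPM in dbko and at 2025 and 1994 CPM in wt (-0.81 ± 0.15, adjusted p = 0.00378). These 3 calls held without any 1 library, and the count was 3 without dbko replicate 1 or either wt library and 17 without dbko replicate 2. Fosb, the most abundant member, had 1665 and 2951 CPM in dbko and 3770 and 3834 CPM in wt and was not called. Of 16 heat shock genes edgeR called 0 in either direction, with a median of -0.14, 3 at an unadjusted p under 0.05, and 2 lower by DESeq2 and 1 lower by limma voom. Without dbko replicate 2 the list had 1 higher and 1 lower.

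Several homing genes were lower in dbko, in a contrast where 4.55% of all genes were called lower and 7.1% higher. Of 21 migration and adhesion genes 5 were lower and 2 higher, with a median of -0.36, and 3 and 1 of these calls held without any 1 library. Klf2, a regulator of lymphocyte traffic and quiescence, stood at 321 and 381 CPM in dbko and at 829 and 869 CPM in wt (-1.28 ± 0.18, adjusted p = 0.000535). Ccr6, a chemokine receptor of mature B cells, stood at 50.9 and 34.2 CPM in dbko and at 120 and 112 CPM in wt (-1.44 ± 0.27, adjusted p = 0.00673). Ccr7, which guides cells to T cell zones, stood at 1338 and 2011 CPM in dbko and at 3359 and 3399 CPM in wt (-1.01 ± 0.27, adjusted p = 0.033), with adjusted p = 0.248 without dbko replicate 1, and 0.148 and 0.146 without wt replicates 1 and 2. Itgb1, the integrin beta-1 chain, was higher, at 184 and 113 CPM in dbko and at 71.6 and 73.1 CPM in wt (1.04 ± 0.17, adjusted p = 0.00217). The count of lower genes was 3 without dbko replicate 1 or either wt library and 10 without dbko replicate 2.

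Antigen presentation and co-stimulation genes were lower in 5 of 24 cases and higher in 1, with a median of -0.33. The shares over all genes were 4.55% lower and 7.1% higher. H2-Oa, a regulator of peptide loading on MHC class II, stood at 168 and 249 CPM in dbko and at 407 and 412 CPM in wt (-0.98 ± 0.18, adjusted p = 0.0036). Psmb9, an immunoproteasome subunit, stood at 79.6 and 83.5 CPM in dbko and at 122 and 122 CPM in wt (-0.58 ± 0.10, adjusted p = 0.00357). Both genes overlap another gene on the opposite strand, BC051537 and Tap1. The class II gene H2-Ab1 itself stood at 3477 and 4439 CPM in dbko and at 5648 and 5576 CPM in wt and was not called. The count of lower genes was 3 without dbko replicate 1, 2 without either wt library and 11 without dbko replicate 2.

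Markers of B cell subsets showed no common direction, and over all genes 4.55% were called lower and 7.1% higher. Of 20 follicular markers 4 were lower and 0 higher, with a median of -0.28, and 1 call held without any 1 library. The count was 1 without dbko replicate 1 or either wt library and 11 without dbko replicate 2. The list summed to 30265 and 39203 CPM in dbko and to 42788 and 45147 CPM in wt. The complement receptor gene Cr2 stood at 157 and 574 CPM in dbko and at 745 and 752 CPM in wt, lower in replicate 1 than in replicate 2 and below wt in both, and was not called. Of 8 marginal zone markers edgeR called 0, with a median of -0.13, 2 at an unadjusted p under 0.05, 0 by DESeq2 and 1 lower by limma voom, while without dbko replicate 2 edgeR called 2 lower. Of 8 tested immature and precursor markers 0 were higher and 1 lower, with a median of 0.27, and without wt replicate 2 that call ended. Of 8 B-1 cell markers 2 were higher and 0 lower, with a median of 0.41, and the count was 1 without either wt library and 4 without dbko replicate 2. Zbtb32, a transcriptional repressor of B cells, stood at 22.6 and 8.43 CPM in dbko and at 2.19 and 2.52 CPM in wt (2.72 ± 0.41, adjusted p = 0.00144). The other B-1 marker called higher was S100a6, whose levels are given below.

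Several genes of germinal centre and switched cells were lower in dbko, from low levels in wt. The shares over all genes were 4.55% lower and 7.1% higher. Of 11 tested germinal centre markers 4 were lower and 0 higher, with a median of -0.70, and 3 of these calls held without any 1 library, while the count was 6 without dbko replicate 2. S1pr2, a receptor that holds cells in the germinal centre, stood at 4.23 and 4.60 CPM in dbko and at 12 and 12 CPM in wt (-1.44 ± 0.22, adjusted p = 0.00116). Fas, described above, was among the genes whose call held. Of 8 tested immunoglobulin constant genes 2 were lower and 0 higher, with a median of -0.62, and the count was 1 without dbko replicate 2 or either wt library and 0 with limma voom. It was 3 without dbko replicate 1, with a median of -2.46. Ighg1, the constant region of IgG1, stood at 0.282 and 0.0958 CPM in dbko, 3 and 1 counts, and at 7.61 and 7.55 CPM in wt (adjusted p = 0.000439, and 0.354 with limma voom). Ighg3 differed between the dbko libraries, with 62.2 and 4.60 CPM in dbko and 19.4 and 16.8 CPM in wt, and Ighm, the IgM constant region, stood at 6288 and 9476 CPM in dbko and at 7198 and 7354 CPM in wt. Of 11 tested plasma cell markers edgeR called 0, with a median of -0.19, 4 at an unadjusted p under 0.05, and DESeq2 and limma voom called 0, while without dbko replicate 2 edgeR called 4 lower. Of 8 age-associated and memory markers 3 were higher, Itgax among them, and 2 lower, with a median of -0.16. Without dbko replicate 1 or either wt library 1 was higher, and without wt replicate 2 only 1 was lower.

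Most of the largest falls in dbko lay in 4 places of the genome. Apart from Rel, the genes that fell most in whichever dbko library had changed less were Ifi213, Il9r, Apoe, Sfn, Ifi206, Hmgn2, Slc1a5, Ifi208, Pglyrp1, Rhbdf1 and Pacsin1. Each of these calls held without any 1 library. Apoe, which encodes the lipid carrier apolipoprotein E, stood at 9.86 and 7.76 CPM in dbko and at 119 and 124 CPM in wt (-3.78 ± 0.20, adjusted p = 3.85e-07). Slc1a5, a transporter of glutamine, stood at 65.6 and 57.4 CPM in dbko and at 249 and 265 CPM in wt (-2.06 ± 0.16, adjusted p = 7e-06). Pglyrp1, an antibacterial peptidoglycan-binding protein, stood at 4.13 and 3.54 CPM in dbko and at 15.4 and 17.2 CPM in wt (-2.09 ± 0.25, adjusted p = 0.000188).

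Apoe, Slc1a5 and Pglyrp1 all lie within 5 Mb of Relb on chromosome 7, Apoe 0.078 Mb from it, and Slc1a5 and Pglyrp1 at -2.84 and -0.746 Mb, where minus marks a lower coordinate. Of 81 tested genes in that window 4 were called higher and 15 lower, 23.5%, against 11.7% over all genes, and within 1 Mb 2 were higher and 7 lower of 39, 23.1%. Around Rel on chromosome 11 the shares were 11.4% of 35 genes within 5 Mb, with 1 higher and 3 lower, and 0 of 16 within 1 Mb, where 2 had an unadjusted p under 0.05 and DESeq2 and limma voom called 0. Over whole chromosomes the share called ran from 8.31% on X to 13.4% on chromosome 9, leaving out Y, with 1 tested gene that was not called, and the mitochondrial genome, where edgeR, DESeq2 and limma voom called 0 of 16, 2 at an unadjusted p under 0.05.

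Other large falls sat together in 3 short stretches, chosen for description after their values were seen, and in 2 of these they lay beside large rises. In the Ifi200 cluster on chromosome 1 (173350879 to 174031810, GRCm38), a family of interferon-inducible DNA-binding proteins with near copies that can share reads, 4 of 13 tested genes were higher and 4 lower. Ifi213 stood at 0.282 and 0.958 CPM in dbko and at 42.3 and 44.3 CPM in wt (adjusted p = 1.88e-06). Ifi206 stood at 4.13 and 6.23 CPM in dbko and at 48.9 and 47.6 CPM in wt (-3.22 ± 0.23, adjusted p = 5.68e-06), and Ifi208 at 3.57 and 6.90 CPM in dbko and at 26.9 and 29.4 CPM in wt (-2.43 ± 0.32). Ifi204 went the other way, with 28.2 and 35.1 CPM in dbko and 0.417 and 0.194 CPM in wt (adjusted p = 3.41e-06), as did Ifi211, with 9.02 and 13.1 CPM in dbko and 0.208 and 0.387 CPM in wt. The cluster therefore held genes close to silent in dbko next to genes close to silent in wt.

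In 0.11 Mb around the alpha globins on chromosome 11 (32187541 to 32297298) 2 of 7 tested genes were higher, the globins Hba-a1 and Hba-a2, and 3 lower. Il9r, the receptor for interleukin-9, stood at 0.657 and 4.31 CPM in dbko and at 79.6 and 70.6 CPM in wt (-4.92 ± 0.55, adjusted p = 0.000371). Rhbdf1, an inactive rhomboid protein, stood at 0.657 and 2.11 CPM in dbko and at 8.34 and 8.91 CPM in wt (-2.64 ± 0.41, adjusted p = 0.00142, and 0.0632 in a fit of the 4 libraries alone). Snrnp25, a splicing protein gene between them, stood at 17.6 and 12.5 CPM in dbko and at 33.8 and 33 CPM in wt. In 0.37 Mb of chromosome 4 (133600556 to 133968650) Sfn, which encodes the 14-3-3 protein sigma, stood at 3.57 and 5.08 CPM in dbko and at 44.1 and 43.7 CPM in wt (-3.34 ± 0.25, adjusted p = 7e-06), and Hmgn2, a nucleosome-binding protein gene with many copies, at 3.57 and 3.83 CPM in dbko and at 23.8 and 23.2 CPM in wt (-2.66 ± 0.39, adjusted p = 0.0011). The other 4 tested genes of that stretch were not called. Pacsin1, an endocytosis adaptor gene, stood at 10.8 and 10.4 CPM in dbko and at 36.8 and 38 CPM in wt (-1.82 ± 0.15).

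Genes of the cell cycle were higher in dbko, most of all in replicate 1. The shares over all genes were 7.1% higher and 4.55% lower. Of 30 S phase and DNA replication genes 16 were called higher and 0 lower, with a median of 1.10, and of 23 G2 and mitosis genes 3 were higher and 0 lower, with a median of 1.58, while DESeq2 and limma voom each called 10 mitosis genes higher. The median log2 ratio to wt of the S phase list was 1.56 in dbko replicate 1 and 0.46 in replicate 2, and that of the mitosis list 2.06 and 0.62. The S phase genes summed to 4481 and 2562 CPM in dbko and to 1831 and 1882 CPM in wt, and the mitosis genes to 2322 and 840 CPM in dbko and to 507 and 490 CPM in wt. Erythroid genes, which dividing precursors of red cells express, followed the same order of libraries, and their part in these values was not tested.

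None of these calls held in all fits that left out 1 library. For the S phase list the count was 1 without dbko replicate 1, 0 without either wt library and 28 without dbko replicate 2, and for the mitosis list it was 0, 0 and 22. Cdc6, a replication licensing factor, stood at 104 and 47.2 CPM in dbko and at 9.69 and 11.7 CPM in wt (2.82 ± 0.54, adjusted p = 0.00889), with adjusted p = 0.0505 without dbko replicate 1, and 0.106 and 0.082 without wt replicates 1 and 2. Mcm6, a subunit of the replicative helicase, stood at 343 and 172 CPM in dbko and at 106 and 116 CPM in wt (1.22 ± 0.24, adjusted p = 0.00716), with adjusted p = 0.0825 and 0.055 without wt replicates 1 and 2. Mki67, a marker of cycling cells, stood at 503 and 166 CPM in dbko and at 74.5 and 64.5 CPM in wt and was not called. Both dbko libraries lay above wt in these 3 genes.

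Of 13 tested G1 cyclins and inhibitors 4 were higher and 0 lower, with a median of 0.36, and the count was 1 without dbko replicate 1, 0 without either wt library and 6 without dbko replicate 2. Ccne1, cyclin E1, stood at 66.9 and 29.7 CPM in dbko and at 7.71 and 8.52 CPM in wt (2.57 ± 0.48, adjusted p = 0.00747), with adjusted p = 0.0854 and 0.0729 without wt replicates 1 and 2. Ccnd2, cyclin D2, stood at 724 and 232 CPM in dbko and at 186 and 182 CPM in wt (1.38 ± 0.38, adjusted p = 0.0421), with adjusted p = 0.0927 without dbko replicate 1, and 0.209 and 0.216 without wt replicates 1 and 2. Myc, which drives growth in activated B cells, was not called, with 421 and 446 CPM in dbko and 688 and 715 CPM in wt. Beside the calls of the G1 list, 7.1% of all genes were called higher and 4.55% lower.

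Lists of growth and metabolism held between 0 and 4 calls each, beside 7.1% higher and 4.55% lower over all genes. Higher and lower were 4 and 0 of 30 ribosome biogenesis genes (median 0.30), 1 and 0 of 21 glycolysis genes (median 0.06), 2 and 0 of 23 cholesterol synthesis genes (median 0.20), 1 and 2 of 24 unfolded protein and ATF4 stress genes (median 0.09) and 0 and 0 of 26 oxidative phosphorylation genes (median 0.11), of which 2 had an unadjusted p under 0.05 and DESeq2 and limma voom called 0. Without dbko replicate 1 or either wt library the ribosome and cholesterol counts were 0 and no stress gene was lower. Without dbko replicate 2, higher and lower were 14 and 0 ribosome, 2 and 1 glycolysis, 8 and 0 cholesterol, 4 and 3 stress and 2 and 0 oxidative phosphorylation genes. Pfkm, the muscle-type phosphofructokinase, which red cells also use, stood at 36.6 and 21.8 CPM in dbko and at 3.96 and 3.68 CPM in wt (2.93 ± 0.33, adjusted p = 0.000144), and it overlaps Senp1 on the opposite strand. Asns, asparagine synthetase, stood at 36.6 and 18.1 CPM in dbko and at 3.13 and 2.23 CPM in wt (3.35 ± 0.38, adjusted p = 0.000146). Both calls held without any 1 library, and in both genes replicate 1 was the higher of the dbko pair.

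Signalling and interferon lists varied in their share of calls, beside 11.7% over all genes. Of 36 tested interferon-stimulated genes 1 was higher and 0 lower, with a median of 0.15. That gene was Isg20, an RNA exonuclease, with 49.6 and 37.2 CPM in dbko and 19 and 17 CPM in wt (1.27 ± 0.17, adjusted p = 0.000385). Of 26 B cell receptor signalling genes 1 was higher and 0 lower (median -0.18), and of 22 B cell transcription factors 0 were higher and 2 lower (median -0.23). Without dbko replicate 2, 10 genes of each of these lists were lower, and 3 interferon-stimulated genes were higher and 2 lower. DESeq2 called 3 interferon-stimulated genes higher and 1 lower, and limma voom 6 higher and 1 lower. Without either wt library no receptor signalling gene was called and 1 transcription factor was lower, Klf2, which was also the count without dbko replicate 1, while DESeq2 called 5 transcription factors lower and limma voom 4. Of 20 cytokine receptor genes 4 were higher and 1 lower (median 0.10), the lower one being Il9r, and 2 were higher without dbko replicate 1, 1 without either wt library and 4 lower without dbko replicate 2. Csf2rb, the shared receptor chain for interleukin-3, interleukin-5 and GM-CSF, stood at 83.2 and 46.7 CPM in dbko and at 26.8 and 26.4 CPM in wt (1.29 ± 0.20, adjusted p = 0.00149). Of 12 tested TNF family ligands and receptors 2 were higher, Tnf among them, and 1 lower, which was Ltb (median 0.42). Without dbko replicate 1 or either wt library 1 was higher and 0 lower, and without dbko replicate 2 the counts were 2 and 3. Of the sex-specific genes 1 was tested and not called, and the 4 of the Y chromosome had no count in any of the 4 libraries.

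**Figure D4:**
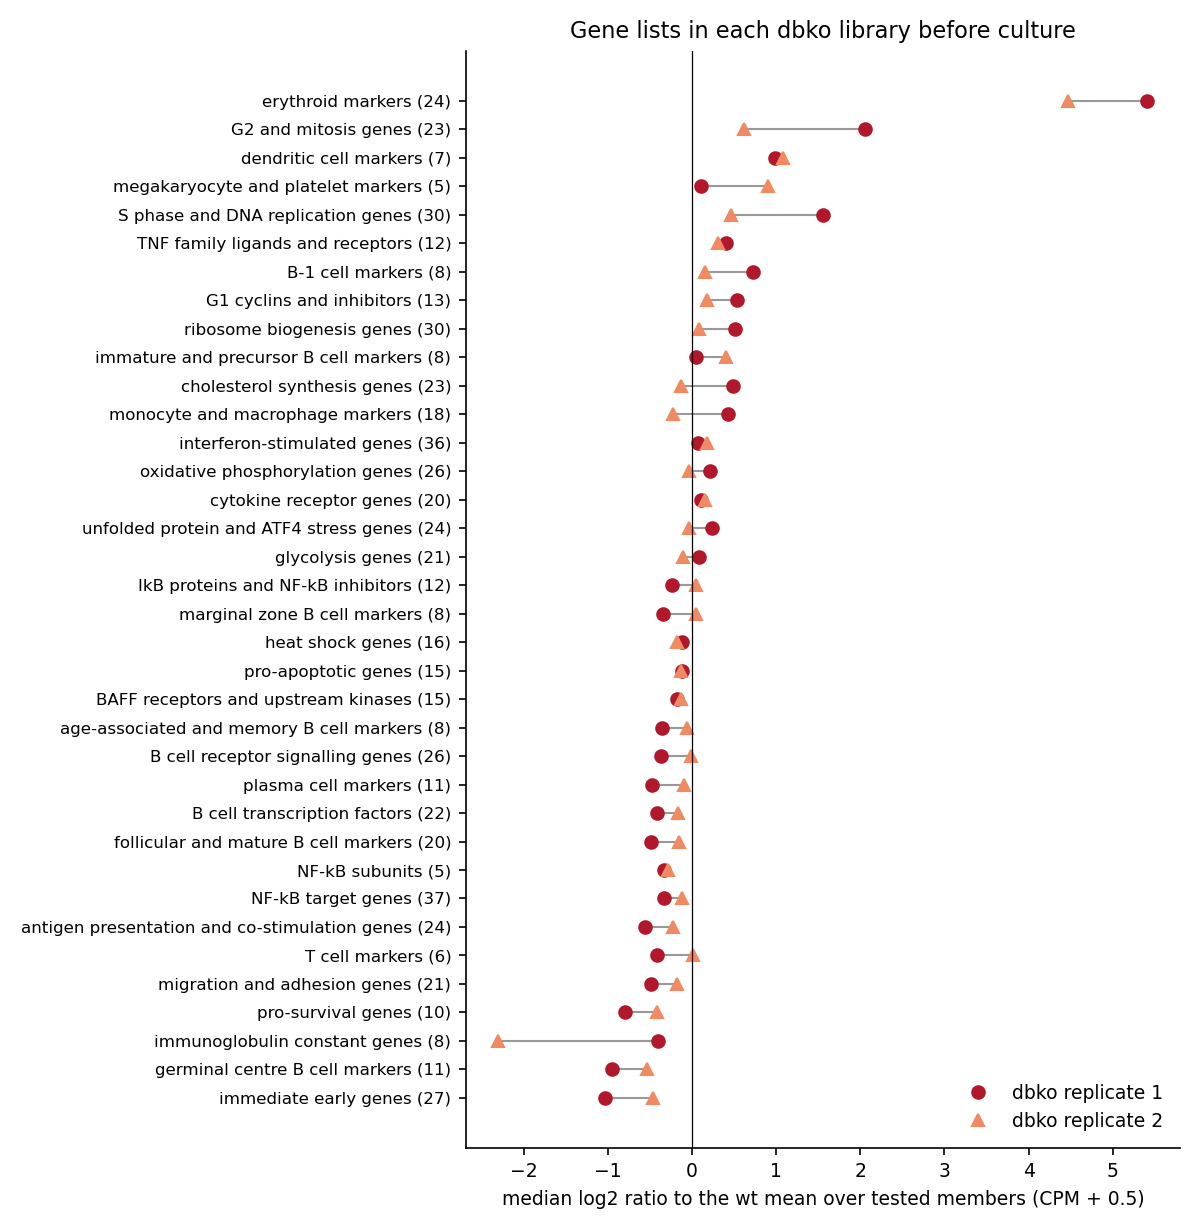
Median log2 ratio to the wt mean over the tested members of each gene list before culture, from CPM plus 0.5, with a dark circle for dbko replicate 1, a light triangle for dbko replicate 2 and the number of tested members in brackets. The erythroid list stands at 5.41 and 4.47, the S phase list at 1.56 and 0.46, the dendritic cell list at 0.99 and 1.08 and the immediate early list at -1.03 and -0.46 in the 2 dbko libraries.

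Some genes of 1 cluster separated the dbko libraries almost completely, with replicate 2 close to wt. Trim12a, one of a chromosome 7 cluster of TRIM genes related to the antiviral restriction factor TRIM5, stood at 0.0939 and 103 CPM in dbko and at 102 and 94.4 CPM in wt. Trim30d stood at 0.564 and 49.4 CPM in dbko and at 56.5 and 54.6 CPM in wt, Trim5 at 0 and 16 CPM in dbko and at 17.9 and 18.2 CPM in wt, and Trim34a at 4.13 and 63.1 CPM in dbko and at 67.9 and 72.2 CPM in wt. Some other members of the cluster were present in all 4 libraries, Trim30a with 147 and 146 CPM in dbko and 154 and 138 CPM in wt, and Trim12c with 39.1 and 54.8 CPM in dbko and 50.5 and 51.2 CPM in wt. Trim30b, at 8.45 and 30.7 CPM in dbko and 24.9 and 24.4 CPM in wt, was lower in replicate 1. So was Gm15133, at 0 and 3.74 CPM in dbko and 4.06 and 3.87 CPM in wt. Trim30c went the other way, with 19.5 and 4.5 CPM in dbko and 2.81 and 2.81 CPM in wt. The cluster covers 0.29 Mb (104218793 to 104507849, GRCm38), and edgeR called 0 of its 11 tested genes, 1 at an unadjusted p under 0.05, while DESeq2 called 1 higher and limma voom 0. Copies in this family can share reads, and Trim12a overlaps Gm15133 on the opposite strand. The same split stood in the libraries taken at 6h, with Trim12a at 0.243 and 86.7 CPM in dbko and 109 and 113 CPM in wt, and Trim30d at 0.566 and 15.9 CPM in dbko and 31.2 and 23.8 CPM in wt.

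**Figure D5:**
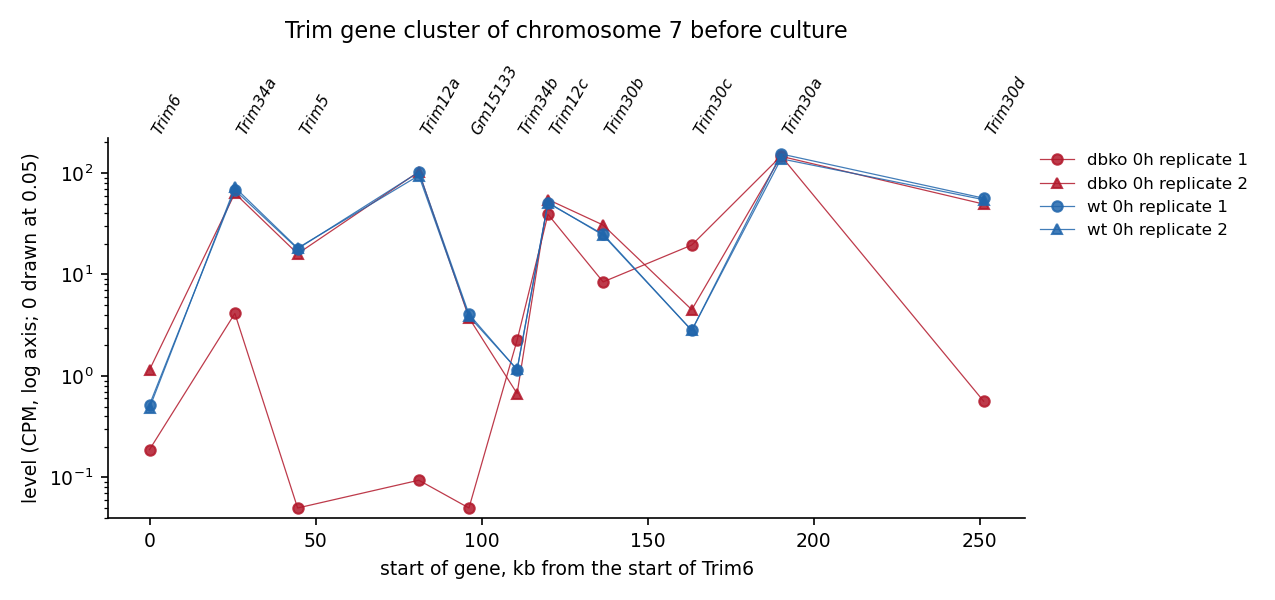
CPM on a log axis of 11 genes of the Trim cluster of chromosome 7 before culture, drawn by distance in kb from the start of Trim6, with red for dbko and blue for wt, circles for replicate 1 and triangles for replicate 2, and 0 drawn at 0.05. The dbko replicate 1 line falls away from the other 3 libraries at Trim34a, Trim5, Trim12a and Trim30d and meets them at Trim12c and Trim30a. At Trim30c it lies above them.

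Outside that cluster the tyrosine phosphatase gene Ptpn14 was also far lower in replicate 1, at 0.939 and 19.1 CPM in dbko and 29.3 and 25.7 CPM in wt, as were the peptide transporter gene Slc15a2, at 4.04 and 46.9 CPM in dbko and 66.5 and 59.9 CPM in wt, and Nebl, at 2.07 and 13.8 CPM in dbko and 17.6 and 14.7 CPM in wt. In these 3 genes replicate 2 lay below wt by less. In the other direction, the genes with the largest gaps included S100a4, S100a6 and Lifr. S100a4, a calcium-binding protein gene, stood at 132 and 9.29 CPM in dbko and at 1.25 and 1.16 CPM in wt. S100a6, which lies near it on chromosome 3, stood at 373 and 41.5 CPM in dbko and at 6.67 and 5.52 CPM in wt. Lifr, the receptor for leukemia inhibitory factor, stood at 315 and 26 CPM in dbko and at 10.1 and 9.49 CPM in wt. These 3 genes stood above wt in both dbko libraries, with most of the signal in replicate 1.

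Further genes of that kind were Ptafr, the receptor for platelet-activating factor, with 64.2 and 10.2 CPM in dbko and 3.44 and 3.10 CPM in wt, Il2ra, the interleukin-2 receptor alpha chain, with 31.6 and 7.28 CPM in dbko and 5 and 4.74 CPM in wt, and Lgals1, which encodes galectin-1, with 128 and 32.5 CPM in dbko and 19.5 and 19.1 CPM in wt. Esco2, which joins sister chromatids in S phase, stood at 59.9 and 15.5 CPM in dbko and at 7.82 and 7.65 CPM in wt, and Tgm2, a transglutaminase that overlaps Rprd1b on the opposite strand, at 74.1 and 19.4 CPM in dbko and at 10.5 and 7.26 CPM in wt. With 1 library against 1 library, these differences between the dbko replicates have no test.

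The same contrast after 6h with BAFF used 4 other libraries and gave 3370 called genes (26.7%), 1920 higher and 1450 lower. The count was 2170 without dbko replicate 1 at 6h, and 1494 and 1296 without wt replicates 1 and 2 at 6h. Of the genes called at 0h 354 were higher and 171 lower at both times, 525 in all, which is 35.7% of the 0h calls and 15.6% of the 6h calls. Another 135 had opposite directions, 85 of them higher at 0h. The dbko libraries of the same number deviated together at 0h and 6h, with a correlation of 0.483 over genes, so the times are not independent views of the genotype. Among the targeted genes and the largest falls, the 6h changes were -3.56 ± 0.15 for Rel, -1.01 ± 0.14 for Relb, -3.41 ± 0.18 for Apoe, -1.98 ± 0.15 for Slc1a5, -5.30 ± 0.48 for Il9r and -3.16 ± 0.24 for Sfn. Of 24 erythroid genes 22 were higher at 6h, with a median of 5.73, and the list summed to 385 and 190 CPM in dbko and to 48.9 and 50.4 CPM in wt.

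Cells lacking c-Rel alone give a side view of which differences were present without the loss of RelB. The cko and dbko contrasts share the wt libraries, so levels are set side by side and dbko is tested against cko. Sfn stood at 3.57 and 5.08 CPM in dbko and at 7.72 and 5.17 CPM in cko (-0.57 ± 0.27, adjusted p = 0.223), and Ifi204 at 28.2 and 35.1 CPM in dbko and at 40 and 34.3 CPM in cko (-0.23 ± 0.26, adjusted p = 0.635), both far from wt. Bcl2l11 stood at 355 and 430 CPM in dbko and at 363 and 362 CPM in cko (0.11 ± 0.19, adjusted p = 0.774). Hmgn2 stood at 5.61 and 4.67 CPM in cko (-0.47 ± 0.42, adjusted p = 0.54) and Ighg1 at 0.317 and 0.199 CPM in cko (-0.42 ± 1.12, adjusted p = 0.859). Jun stood between dbko and wt, at 332 and 339 CPM in cko (-0.52 ± 0.18, adjusted p = 0.0985). For these genes the difference between dbko and cko was not called. Ifi213, at 1.69 and 2.78 CPM in cko, and Dusp1, at 275 and 276 CPM in cko, also stood between dbko and wt. Both were called lower in dbko than in cko.

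Other genes differed between dbko and cko. Apoe stood at 9.86 and 7.76 CPM in dbko and at 103 and 94.4 CPM in cko (-3.49 ± 0.19, adjusted p = 2.58e-06), Slc1a5 at 65.6 and 57.4 CPM in dbko and at 277 and 235 CPM in cko (-2.06 ± 0.16, adjusted p = 2.18e-05), and Pglyrp1 at 4.13 and 3.54 CPM in dbko and at 16.8 and 17.3 CPM in cko (-2.15 ± 0.25, adjusted p = 0.000416). Il9r stood at 0.657 and 4.31 CPM in dbko and at 175 and 163 CPM in cko (-6.09 ± 0.55, adjusted p = 0.000326). Tnf was higher, at 57.5 and 40.9 CPM in dbko against 19.8 and 20.4 CPM in cko (1.29 ± 0.18, adjusted p = 0.000963). Relb stood at 53 and 65.6 CPM in dbko and at 195 and 168 CPM in cko (-1.61 ± 0.14, adjusted p = 5.82e-05). In wt Relb stood at 115 and 117 CPM, and it was called higher in cko than in wt (0.64 ± 0.14, adjusted p = 0.0385). Rel stood at 40 and 52.3 CPM in dbko and at 58.3 and 52.4 CPM in cko (-0.26 ± 0.14, adjusted p = 0.275).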

How the data were processed

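RNA from 14 libraries, 7 groups of 2, was analysed. The deposited values are raw counts of reads per Ensembl gene, whole numbers with no normalization, in 1 table per library with nothing pooled. Libraries were made with poly-dT primers and an Illumina TruSeq kit, per the labels' protocols, and CASAVA 1.8.2 is named in the submitters' processing notes. The aligner, counting tool and genome build were not given in the sources used here, nor was the use of strand. Tallies of reads outside genes were dropped: reads in no feature made up 6.23 and 6.36% in dbko and 5.57 and 5.69% in wt at 0h, and reads with more than 1 place 47.52 and 46.85% in dbko and 49.85 and 49.38% in wt, so genes with near copies are uncertain. Of 39179 identifiers 37607, with 99.54% of the counts, matched GENCODE M21 (GRCm38). The authors may have used another build. A gene at 1 CPM rests on about 11 counts a library.

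Counts were scaled by TMM and filtered by filterByExpr, and a robust quasi-likelihood model of all 14 libraries, with 1 mean for each group, was fitted in edgeR 4.0.16 (R 4.3.3). It had 7 residual degrees of freedom, and the common biological coefficient of variation was 0.144. Contrasts were tested two-sided, with Benjamini-Hochberg adjustment over 12630 genes and a threshold of 0.05. Log2 ratios of single libraries used CPM plus 0.5. Figures and sums used Python 3.11.15, NumPy 2.4.6, pandas 2.3.3 and Matplotlib 3.10.9. The fit was tested on simulated data that had the same spread in all libraries. Such data cannot test the wider spread between the dbko libraries. Alternatives were DESeq2 size factors, no filter, DESeq2 1.42.0, limma voom with quality weights (limma 3.58.1), the replicate number as a block, the compared libraries alone and leaving out each library. Replicate 1 was run in lane 7 and replicate 2 in lane 8.

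The 41 gene lists and the genes named were chosen with earlier results of these data known. Named are Rel and Relb, the 12 called genes in each direction ranked by the log2 ratio to wt of the less changed dbko library among genes whose average log2 CPM was 3 or more, the 8 genes in each direction that differ most between the dbko libraries under the same filter, all subunit genes, and up to 4 called members of each list with the smallest adjusted p. Mki67, Fosb, Cr2, Myc and others given as not called, Ifi211 and Snrnp25 were added after their values were seen. A few genes that this rule names are not reported here. Ahsp, Ighd and a few other list members had no count table entry and were not used here.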

Additional observations from a re-analysis of the deposited data

Results flagged for a closer look

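For 18 of the 68 genes given with a test the change between dbko and wt differed between 0h and 6h with BAFF by edgeR's test of the difference of both changes, adjusted over all genes, of which 13.8% were called in that test. Jun was lower at 0h (-1.57) and higher at 6h (1.10), a difference of -2.66 ± 0.27 (adjusted p = 0.000257). Tnf was higher at 0h (1.5) and lower at 6h (-0.78), a difference of 2.28 ± 0.25 (adjusted p = 0.000371). Traf5 was lower at 0h (-0.67) and higher at 6h (0.54), a difference of -1.22 ± 0.19 (adjusted p = 0.00251). These 3 genes changed direction between the times and were called at both.

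Traf1 fell further at 6h (-0.55 at 0h, -2.37 at 6h), a difference of 1.82 ± 0.19 (adjusted p = 0.000257), as did Pglyrp1 (-2.09 and -3.66), by 1.58 ± 0.40 (adjusted p = 0.0215). Nfkb2 was called lower at 6h (-1.49) and not called at 0h (-0.31), a difference of 1.18 ± 0.22 (adjusted p = 0.0062). The change of Mpeg1 was larger at 6h (1.09 at 0h, 1.58 at 6h), a difference of -0.49 ± 0.14 (adjusted p = 0.0375). Rela had changes of 0.48 at 0h and -0.34 at 6h, neither called, and a difference of 0.82 ± 0.24 (adjusted p = 0.0416).

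The remaining 10 genes lay closer to wt at 6h than at 0h. Klf2 differed by -1.27 ± 0.25 (adjusted p = 0.00729), Klf6 by -0.83 ± 0.21 (adjusted p = 0.0217), Dusp1 by -0.71 ± 0.17 (adjusted p = 0.0197) and Map3k14 by -0.90 ± 0.24 (adjusted p = 0.0255). Bcl2l11 differed by 1.33 ± 0.28 (adjusted p = 0.00947), Pfkm by 2.72 ± 0.47 (adjusted p = 0.00387) and Asns by 1.76 ± 0.50 (adjusted p = 0.0358). Ifi213 differed by -2.44 ± 0.57 (adjusted p = 0.0156), Pacsin1 by -0.91 ± 0.20 (adjusted p = 0.0123) and the blood group gene Rhd by 3.33 ± 0.90 (adjusted p = 0.0297), with Rhd at 6.27 at 0h and 2.94 at 6h. Of these, Klf2 (-0.00), Klf6 (0.02), Map3k14 (0.20), Bcl2l11 (-0.20) and Pfkm (0.22) were not called at 6h.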

How the results depend on the processing

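The number of genes called between dbko and wt at 0h, 1472, was 2361 with no filter on low counts, 416 in a fit of the 4 libraries alone (74.3% of them higher, against 60.9%), 4717 without dbko replicate 2 at 0h and 6h, an alternative chosen after seeing the data, and between 445 and 3090 with each library left out in turn. At 6h, 3370 calls became 1075 with the 4 libraries alone and between 1296 and 4210 with each library left out. The fit of 4 libraries has fewer residual degrees of freedom, and a library left alone in its group is taken to vary as other groups do. The main fit shares the spread of each gene over all 7 groups. The chi-square statistic per gene was 33.23 between the dbko libraries at 0h and 3.23 between the wt libraries at 0h. That shared spread can be too small for dbko, so adjusted p of the dbko contrasts may be too low. The replicate number as a block gave 1593 calls at 0h and 3505 at 6h, with Rel at -3.77 and Relb at -0.97. Deviations of same-numbered dbko and wt libraries correlated at 0.015 at 0h, so the numbers were not taken to pair them. Rel ran from -3.97 to -3.59 and Relb from -1.13 to -0.83 over the leave-one-out fits, and both kept their calls under every alternative. Nfkb1, at -0.12, ran from -0.30 to 0.03 over the leave-one-out fits, and reversed to 0.03 without dbko_0h replicate 1 and to 0.03 without dbko replicate 1 at 0h and 6h. Of the 68 genes given with a test, all 68 kept direction and call with DESeq2 size factors, DESeq2 and the replicate block, and 52 in the fit of 4 libraries alone. There the calls of Rhbdf1, Tnfaip3, Ltb, Traf5, Map3k14, Traf1, Cflar, Bcl2, Ccr7, Zbtb32, Klf6, Itgb1, H2-Oa, Csf2rb, Mcm6 and Ccnd2 ended, with adjusted p between 0.0632 and 0.199. Genes near 1 CPM rest on few counts and their changes are the least certain.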
